A study of Mus musculus with 2 samples.

Results

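A small class of the mature neutrophils (Neu) in mouse bone marrow (BM) carried more Il1b than Mmp8 RNA, and these are called Il1b-rich cells here. They were chosen from droplet-based 3′ scRNA-seq by their own counts of unique molecular identifiers (UMIs, each standing for 1 captured RNA molecule). In a chosen barcode S100a8 and S100a9 gave at least 5% of the UMIs, the secondary granule genes Camp, Ngp and Ltf together gave under 4%, and Il1b had at least 3 UMIs and more than Mmp8. Of 14142 barcodes with 200 to 9000 genes, at most 30% mitochondrial UMIs and at least 1000 UMIs, 239 met this rule, 124 in the control (Ctrl) library and 115 in the Map4k4-cKO (cKO) library. The class closest to them passed the same S100 and granule limits with Mmp8 at 3 or more UMIs and above Il1b, and these Mmp8-rich cells numbered 1128 in Ctrl and 1106 in cKO.

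Each genotype had 1 library, from mice 13 to 14 weeks old, so differences could not be checked on replicates, and p-values are not reported. The cKO mice were Mx1-Cre Map4k4 f/f on a C57BL/6 background, treated with poly I:C to delete the floxed alleles. The study's methods write the genotype of the Ctrl littermates as Mx1-Cre Map4k4-/-, while its results call the cells of this library wildtype, so the Map4k4 alleles of Ctrl are not settled here. How many animals entered a library and whether the Ctrl mice received poly I:C are not given in the sources used here. Mx1-Cre is driven by an interferon-inducible promoter, so it acts in many cell types beside Neu. BM cells freed of red cells were combined with bead-enriched c-Kit+ hematopoietic stem and progenitor cells, 2 parts of the latter to 3 parts of BM, and the shares below are shares of this mixture.

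Neutrophils fill their granules in steps while they mature in the marrow, and the genes for each set of granule proteins are switched off before the cell leaves. The G-CSF receptor, encoded by Csf3r, and the chemokine receptor CXCR2 mark the last marrow stages and the cells that enter blood. Il1b encodes the precursor of interleukin 1 beta, an inflammatory cytokine that neutrophils can transcribe quickly and that caspase 1 cleaves once an inflammasome has formed.

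Before filtering, 71527701 UMIs over 10220 barcodes were listed for Ctrl and 64393950 UMIs over 6872 barcodes for cKO. The Il1b-rich cells were shallow in Ctrl, with a median of 1954.5 UMIs and 926.5 genes per cell, and deeper in cKO, with a median of 4915 UMIs and 1475 genes. Their summed depth was 256093 UMIs in Ctrl and 560871 UMIs in cKO, so 1 UMI stood for 3.90 counts per 1000000 UMIs of the class (CPM) in Ctrl and 1.78 CPM in cKO. Their median mitochondrial share was 0.311% in Ctrl and 0.299% in cKO. All intervals given here are 95% intervals and cover counting error only.

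The libraries had 3010 barcode sequences in common, every barcode of both began with AA, and 1 barcode was Il1b-rich in both. Of the 2633 shared sequences kept in both libraries, 29.8% fell in the same class, against 29.9% from the class shares alone. Among the members, 25 in Ctrl and 54 in cKO had a sequence that also occurred in the other library. In each library 1 member was deeper than 3 times the median of its class. The deep Ctrl member had 6876 UMIs, 38 of them from B cell markers, and the deep cKO member had 29937 UMIs, 1466 of them from primary granule genes. For the lists and genes where it is stated, values are also given without the barcodes of the Il1b-rich and Mmp8-rich classes above that depth, called deep barcodes.

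Map4k4 (ENSMUSG00000026074, chr1:39900913-40026310, plus strand, GRCm38), the gene targeted in the cKO mice, had 9 UMIs in the Il1b-rich cells of the library labelled Ctrl (35.1 CPM) and 24 UMIs in those of the library labelled cKO (42.8 CPM), a log2 ratio of 0.28 (-0.87 to 1.57). In all other kept barcodes it was at 72.4 CPM in Ctrl and 64.2 CPM in cKO. The targeted gene was thus not near 0 in cKO in either set of barcodes, and the sign of its ratio in the members changed in 3 other settings, to -1.91 (5 UMIs in Ctrl and 1 in cKO) without barcodes with UMIs of another cell type, which leaves 77 of the 124 Ctrl and 27 of the 115 cKO members. The counts cover the whole gene and do not show which exons were read, so they do not check the labels. The study assayed the Map4k4 transcript by RT-PCR in progenitors after poly I:C, a measurement not analysed here.

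The sequences of 4 genes are shown because these genes lead the comparison described next and carry, close upstream of the RefSeq start site, the motif TTCNNNGAA that STAT transcription factors bind. These 4 stretches of 69 bases run 5′ to 3′ on the strand of the gene, come from RefSeq on GRCm38.p6, and have the motif in capitals.
Socs3 (chr11:117969512-117969580, minus strand): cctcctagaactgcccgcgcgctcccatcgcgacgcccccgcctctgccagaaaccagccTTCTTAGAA
Fgl2 (chr5:21372577-21372645, plus strand): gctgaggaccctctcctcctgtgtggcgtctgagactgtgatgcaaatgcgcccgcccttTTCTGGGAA
Steap4 (chr5:7960296-7960364, plus strand): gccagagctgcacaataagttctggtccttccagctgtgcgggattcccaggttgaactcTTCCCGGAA
Gm2a (chr11:55097844-55097912, plus strand): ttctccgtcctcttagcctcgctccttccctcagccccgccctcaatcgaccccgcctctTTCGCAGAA

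The motif began 154 bases before the start site of Socs3, 36 before that of Fgl2, 116 before that of Steap4 and 81 before that of Gm2a. Searched on both strands in the 250 bases before the start, it occurred in 4 of the 11 genes with an entry among the 12 highest in Il1b-rich over Mmp8-rich cells, and in 8.13% of all 27025 genes listed, where a gene counts if any of its listed windows holds the motif (7.02% of the 32851 windows). Among the 12 lowest, 11 had an entry and 1 of these (Ifitm6) held it. The AP-1 motif TGANTCA occurred in 2 of the 11 highest (7.82% of all genes), the C/EBP motif TTNNGCAA in 2 (10.8%) and the NF-kB consensus in 3 (8.999%), 1 of them Ctsa, in 1 of its 2 windows. None of these overlapped a STAT motif in the 4 genes shown, and the window of Il1b itself held none of the 4 motifs. A match describes the letters of a window and not an occupied site.

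The chosen cells carried the RNA of late neutrophils. Csf3r (chr4:126024550-126044440, plus strand) was at 4967 CPM in Ctrl members and 3388 CPM in cKO members, against 210.0 and 256 CPM in all other kept barcodes. Cxcr2 was at 1648 and 1803 CPM, against 115 and 242 CPM. Against the Mmp8-rich cells the markers of mature neutrophils were split. Csf3r and Cxcr2 were higher than the 1114 and 1149 CPM and the 942 and 1194 CPM of those cells. Ly6g, the surface protein used to sort mouse neutrophils, was at 129 CPM in Ctrl and 346 CPM in cKO members, below the 606 and 977 CPM of Mmp8-rich cells. Retnlg, a secreted resistin-like protein and the most abundant gene of the list, was at 11016 and 20443 CPM, below 32914 and 38856 CPM.

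The 4 proposed markers that the rule did not use were higher in the members than in all other kept barcodes of either library. Wfdc17, a small protein with a protease inhibitor domain, was at 1913 CPM in Ctrl and 9261 CPM in cKO members, log2 ratios of 4.80 and 4.39 over all other kept barcodes. Ifitm1, an interferon-induced membrane protein, was at 1796 and 9291 CPM, log2 ratios of 4.16 and 4.15. Ccl6, a CC chemokine, was at 2776 and 2300.0 CPM (4.22 and 3.71), and Stfa2l1, a stefin-type cathepsin inhibitor, at 1390.1 and 2113 CPM (4.33 and 3.66). A shift past 2-fold was common in that comparison. In Ctrl 19.9% of genes were higher and 35.4% lower, in cKO 20.1% were higher and 31.6% lower, and of 5465 genes compared in both libraries 16.5% were higher in both and 26.4% lower in both. Against the Mmp8-rich cells the log2 ratios of Wfdc17 (3.26 in Ctrl, 1.78 in cKO), Ifitm1 (2.46 and 1.68) and Ccl6 (1.20 and 1.10) were past 2-fold, while that of Stfa2l1 (0.91 and 0.97) was not. With median-of-ratios scaling Ccl6 fell short of 2-fold, at 0.85 and 0.73. Without barcodes with UMIs of another cell type the Ctrl ratios were 2.25 for Wfdc17, 1.47 for Ifitm1 and 0.78 for Ccl6, the last short of 2-fold. This setting leaves out every barcode with 3 or more UMIs from the markers of another type. The monocyte list, led by Ly6c2, alone reached 3 UMIs in 61.9% of Ctrl and 83.4% of cKO Mmp8-rich cells. Most Mmp8-rich cells are thus left out, and the part of depth in this was not tested.

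**Figure D1:**
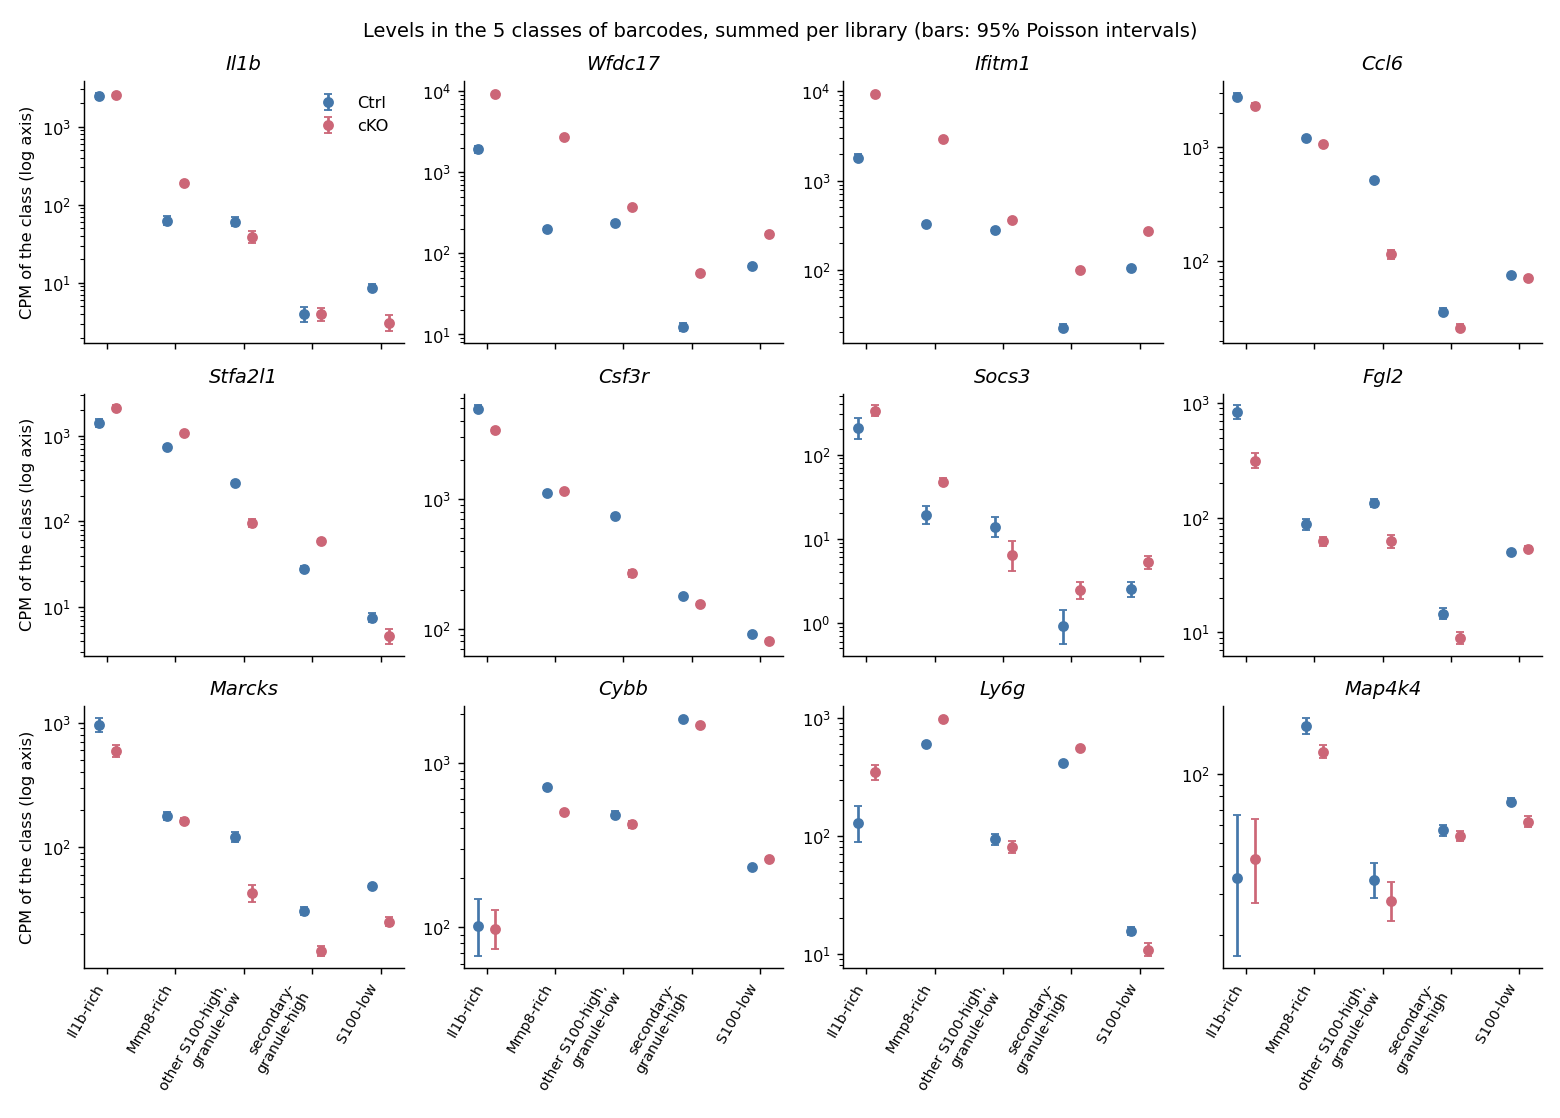
CPM on log axes for 12 genes in 5 classes of barcodes, with 1 point per library and bars for 95% Poisson intervals. In both libraries the Il1b-rich class is the highest of the 5 for Csf3r (4967 and 3388 CPM), Socs3, Fgl2 and Marcks and the lowest for Cybb (102 and 98.1 CPM).

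Markers of other cell types were present in the members at differing levels, with some defining genes at 0. Of the 15 monocyte markers, Ccr2 had 2 UMIs in the Ctrl members and 2 UMIs in the cKO members (7.81 and 3.57 CPM, against 195 and 246 CPM in the S100-low barcodes that hold the other lineages), and Ace had none. The list summed to 773 CPM in Ctrl and 739.9 CPM in cKO members, with Ly6c2 the most abundant at 332 and 444 CPM, and to 1620.0 and 1589.6 CPM in Mmp8-rich cells. Csf1r, the receptor for macrophage colony-stimulating factor, went the other way, at 168 and 141 CPM against 55.4 and 48.7 CPM in Mmp8-rich cells. The 10 macrophage markers summed to 238 and 285 CPM, about the level of the S100-low barcodes (244 and 233 CPM), led by Apoe at 156 and 182 CPM, while C1qa, C1qc, Axl, Cd5l and Mertk had no UMI in either library.

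The B cell list summed to 238 CPM in Ctrl, led by Cd79a and Ms4a1 at 66.4 CPM each, and 62.3% of its UMIs came from the deep member, without which it was 92.3 CPM. In cKO it summed to 5.35 CPM, with Cd79a, Ms4a1 and Pax5 at 0. The plasma cell list reached 2495 CPM in Ctrl and 317 CPM in cKO, led by Igkc, and the red cell list 695 and 89.1 CPM, led by Hbb-bs. In S100-low barcodes the plasma cell list was at 10831 and 10595 CPM and the red cell list at 5856 and 4100.3 CPM. Dendritic cell markers summed to 164 and 12.5 CPM (led by Cd74), and to 104 CPM in Ctrl without the deep member. T and NK cell markers summed to 74.2 and 99.8 CPM (Nkg7). In cKO 1 cell gave 78.6% of the latter UMIs, and without the deep member the list came to 22.6 CPM there. Platelet markers summed to 62.5 and 8.91 CPM (Pf4 in Ctrl, Itga2b in cKO). Eosinophil markers summed to 43.0 and 17.8 CPM (Siglecf) and stem and progenitor markers to 54.7 and 16.0 CPM (Kit). The basophil and mast list reached 672 and 603 CPM against 679 and 688 CPM in S100-low barcodes, almost entirely through Hdc, at 609 and 588 CPM, while Cpa3 and Ms4a2 were at 0 in both libraries. The part of this RNA in the results below was not tested.

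The rule set the Il1b level, so that level is a description only. Members held 3 to 20 Il1b UMIs in Ctrl with a median of 4, and 3 to 43 in cKO with a median of 11. As a share of the UMIs of a cell the medians were 0.229% and 0.264%, closer to each other than the raw counts. Mmp8 was at 0 in 59 Ctrl members (47.6%) and in 15 cKO members (13.0%). Il1b (chr2:129364570-129371139, minus strand) summed to 2464 CPM in Ctrl and 2562 CPM in cKO members, and to 62.7 and 189 CPM in Mmp8-rich cells. In the other S100-high, granule-low barcodes it was at 60.4 and 38.8 CPM, and in S100-low ones at 8.67 and 3.08 CPM.

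Il1b was rare in S100-low barcodes with B cell RNA. These B cell barcodes were S100-low and had at least 3 UMIs of the B cell gene Cd79a. Of 516 in Ctrl, 1.36% had an Il1b UMI (exact binomial interval 0.547% to 2.78%) at a median depth of 3278 UMIs. In cKO 0 of 37 did, which allows up to 9.49%. The S100 limit leaves out S100-high barcodes with B cell RNA, among them the deep Ctrl member, with 12 Cd79a and 4 Il1b UMIs. The part of this limit in the low shares was not tested. In Mmp8-rich cells 12.7% had an Il1b UMI in Ctrl at a median of 2827.5 UMIs, and 37.3% in cKO at a median of 6499.5 UMIs. Among those with at least 2000 UMIs, thinned to that depth, these shares were 8.51% and 26.0%, above the shares measured in the B cell barcodes. Whether the UMIs in B cell barcodes were free RNA was not tested.

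Many Ctrl members lay close to the limits. In Ctrl 36 members had exactly 3 Il1b UMIs (median 0.165% of UMIs, at 1822.5 UMIs per cell) and 40 barcodes met every other limit with 2 (0.109%, at 1836 UMIs), and in cKO these numbers were 4 and 5. Barcodes with at least 3 Il1b UMIs but fewer than of Mmp8 numbered 15 in Ctrl and 195 in cKO, and the 195 had medians of 17 Mmp8 and 4 Il1b UMIs. Ties between both genes stood at 5 and 16. Under 5% of S100 UMIs, 36 Ctrl and 6 cKO barcodes passed the limits on Il1b, Mmp8 and granule genes.

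Il1b-rich cells were 1.41% (1.17% to 1.68%, exact binomial) of kept barcodes in Ctrl and 2.15% (1.78% to 2.58%) in cKO. The kept barcodes included 3988 S100-low ones in Ctrl and 1215 in cKO, a part that the mixing of c-Kit+ and BM cells can set. Of the S100-high, granule-low barcodes the members were 124 of 1990 in Ctrl, or 6.23% (5.21% to 7.38%), and 115 of 1842 in cKO, or 6.24% (5.18% to 7.45%). This pool also held 738 Ctrl and 621 cKO barcodes of neither class. Summed, these had primary granule genes at 30549 and 41671 CPM, against 4164 and 1750 CPM in Mmp8-rich cells. Their cell-cycle genes were at 8975 and 9104 CPM, against 3263 and 2267 CPM. The pool was thus not of mature cells only, and how many of its barcodes were immature was not tested. The difference in member share was 0.0121 points, with an interval from -1.56 to 1.59 points.

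This difference changed with the settings on depth and on Il1b. The rule asks for whole UMIs, the median member was 2.51 times deeper in cKO, and the settings below also change which barcodes enter or the floor on Il1b, so the part of depth was not tested. Among barcodes with at least 2000 UMIs the shares were 4.62% in Ctrl and 8.02% in cKO. Thinned to 2000 UMIs before the rule was applied they were 3.72% (2.74% to 4.94%) and 6.99%, and thinning to that depth leaves out 67 of the 124 Ctrl members and 5 of the 115 cKO members. Thinned to 1000 UMIs, a depth that every kept barcode has, with a floor of 2 Il1b UMIs, they were 5.35% and 5.37%. A floor of 0.1% of UMIs in place of 3 UMIs gave 7.59% and 5.92%, the opposite order.

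The Il1b RNA of all S100-high, granule-low barcodes together needs no limit on Il1b. It was at 139 CPM in Ctrl (1103 UMIs) and 252 CPM in cKO (3033 UMIs), a log2 ratio of 0.86 (0.76 to 0.96). The Il1b-rich cells gave 57.2% of these UMIs in Ctrl and 47.4% in cKO. They also gave 29.4% and 32.2% of the Socs3 UMIs and 22.6% and 19.0% of the Wfdc17 UMIs of this pool.

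Beside the Mmp8-rich cells, the Il1b-rich cells had more RNA of Socs3, Csf3r, Fgl2 and 7 of 19 immediate early genes. They had less RNA of Cybb and of 7 of 14 genes in the secondary granule list, Cd177 among them. UMIs were summed over each class and genes with at least 20 CPM in 1 class and 10 UMIs in all were compared, as a description, because the cells were chosen on the same counts. In Ctrl 738 of 5182 genes (14.2%) were higher by at least 2-fold and 372 (7.18%) lower. In cKO 490 of 4339 (11.3%) were higher and 171 (3.94%) lower. Of 4184 genes compared in both libraries, 213 (5.09%) were higher in both and 112 (2.68%) lower in both. The median log2 ratio was 0.26 over the 5182 genes of Ctrl and 0.34 over the 4339 genes of cKO. Median-of-ratios scaling moves every ratio by -0.34 and -0.37, and with it 373 genes were higher and 636 lower in Ctrl and 187 higher and 318 lower in cKO, and 2.39% of the genes compared in both were higher in both and 5.02% lower. Ratios below are on the CPM scale, and each list is read against these medians and shares.

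Socs3 (chr11:117966079-117970047, minus strand) encodes the feedback inhibitor of G-CSF and IL-6 receptor signalling. The RefSeq start used for its sequence above lies inside this span. Ranked by the smaller ratio of both libraries, Socs3 came next after Il1b among genes with at least 100 CPM. It was at 207 CPM in Il1b-rich and 19.3 CPM in Mmp8-rich cells of Ctrl and at 332 and 47.7 CPM in cKO, log2 ratios of 3.43 (2.89 to 3.95) and 2.80 (2.53 to 3.05). Among cells with at least 2000 UMIs (57 of 124 Ctrl and 110 of 115 cKO members, 870 of 1128 and 1056 of 1106 Mmp8-rich cells), thinned to that depth, a Socs3 UMI was found in 29.8% of Ctrl and 46.4% of cKO members, against 3.33% and 9.19% of Mmp8-rich cells. Csf3r, whose receptor SOCS3 restrains, was at 4967 against 1114 CPM in Ctrl and 3388 against 1149 CPM in cKO, log2 ratios of 2.16 and 1.56. Both genes were thus higher in the Il1b-rich class of each library. Socs3 was the 1 gene past 2-fold of 6 compared in the list for STAT5 and its feedback, with list medians of 0.83 and 0.84. Stat5b itself was at 195 against 103 CPM in Ctrl and 160.5 against 82.6 CPM in cKO.

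The other leading genes had varied products. Fgl2, a secreted fibrinogen-like protein, was at 836 against 87.7 CPM in Ctrl and 316 against 62.4 CPM in cKO (log2 ratios of 3.25 and 2.34). Steap4, a metalloreductase, was at 207 against 7.81 CPM in Ctrl and 517 against 125 CPM in cKO (4.73 and 2.04). Fgl2 was higher in Ctrl than in cKO members, and Steap4 was the reverse. Gm2a, the activator of ganglioside breakdown in lysosomes, was at 531 against 77.3 CPM and 419 against 81.2 CPM (2.78 and 2.37). Ctsa, a lysosomal carboxypeptidase, had log2 ratios of 2.41 and 2.17, and Itga4, the integrin chain that binds VCAM1, had 2.06 and 2.47. Marcks, an actin-binding substrate of protein kinase C, was at 961 against 178 CPM in Ctrl and 592 against 163 CPM in cKO (2.43 and 1.86), and was found in 82.5% and 70.9% of members with at least 2000 UMIs, thinned to that depth. Cd244a, a SLAM family receptor (4.21 and 2.68), Prr5l, a partner of mTOR complex 2 (4.18 and 2.45), Gm5150 (2.52 and 1.97) and the interferon-induced Slfn5 (2.32 and 1.85) completed the 12 highest. Without barcodes with UMIs of another cell type the cKO ratio of Slfn5 was -0.24.

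**Figure D2:**
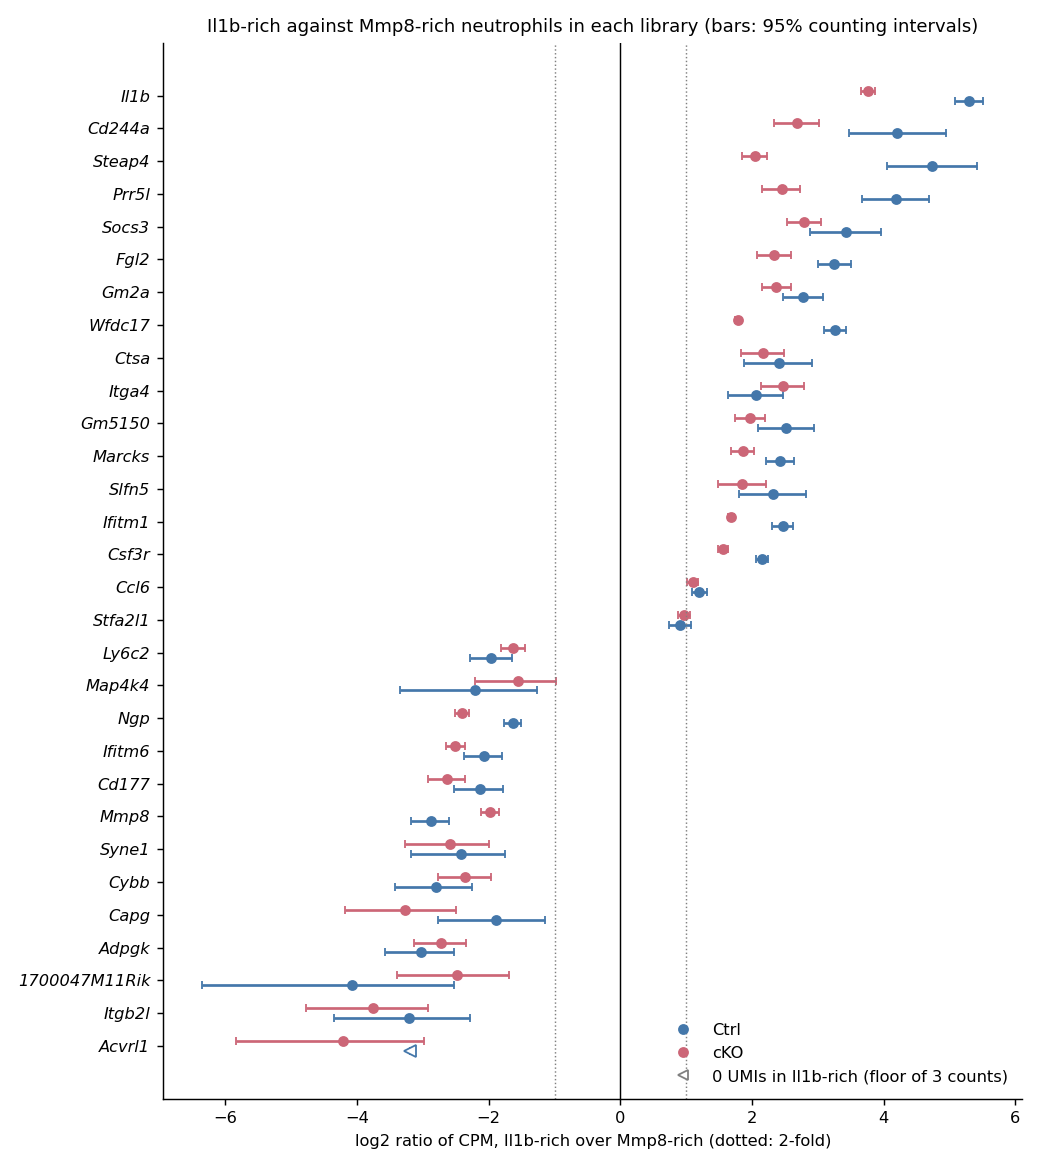
Log2 ratio of CPM, Il1b-rich over Mmp8-rich cells, for the named genes, with 1 point per library, bars for 95% counting intervals and an open triangle for a bound from 0 UMIs. Each gene drawn has 1 sign in both libraries, and Stfa2l1 (0.91 and 0.97) lies inside 2-fold.

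The lowest genes included products of the granules and of the phagocyte oxidase. Cybb, the membrane subunit of that oxidase, was at 102 against 710.1 CPM in Ctrl and 98.1 against 501 CPM in cKO, log2 ratios of -2.81 (-3.42 to -2.25) and -2.35 (-2.77 to -1.97). Cd177, a surface and granule protein of neutrophils, was at 246 against 1083 CPM and 187 against 1162 CPM (-2.14 and -2.63). Among the same cells thinned to 2000 UMIs, Cybb was found in 19.3% and 12.7% of the members and in 61.5% and 52.6% of Mmp8-rich cells. Ifitm6 was at 402 against 1693 CPM and 699 against 3976 CPM (-2.07 and -2.51), so that Ifitm1 and Ifitm6 stood on opposite sides under both scalings. Itgb2l, a beta 2-like integrin chain, was at 35.1 against 326 CPM and 19.6 against 267 CPM (-3.21 and -3.77). Adpgk, the ADP-dependent glucokinase, had log2 ratios of -3.02 and -2.73. Acvrl1, a receptor of the TGF-beta family, had 0 UMIs in Ctrl members, at least 9.13-fold lower than in Mmp8-rich cells with a floor of 3 UMIs over the class, and 5 UMIs in cKO members (-4.21). Syne1, a nuclear envelope protein (-2.42 and -2.59), 1700047M11Rik (-4.08 and -2.48), the actin-capping Capg (-1.90 and -3.28) and Ly6c2 (-1.96 and -1.63) were also among the 12, with Mmp8 and Ngp, which the rule used.

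Map4k4 was lower in the Il1b-rich cells than in the Mmp8-rich cells of both libraries. It was at 35.1 against 162 CPM in Ctrl (9 against 624 UMIs) and 42.8 against 126 CPM in cKO (24 against 965 UMIs), log2 ratios of -2.21 (-3.34 to -1.27) and -1.55 (-2.20 to -0.97). Among cells with at least 2000 UMIs, thinned to that depth, it was found in 7.02% and 11.8% of the members and in 26.3% and 22.0% of Mmp8-rich cells. Of its relatives, Map4k2 was the 1 other gene compared, at 344 against 259 CPM in Ctrl and 146 against 139 CPM in cKO.

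Of 19 genes compared from the list for AP-1 and immediate early factors, 7 were higher by at least 2-fold in both libraries and none lower, with medians of 0.92 and 1.18. With median-of-ratios scaling 3 were past 2-fold in both, and without the deep barcodes 6. Junb was at 918 against 298 CPM in Ctrl and 995 against 307 CPM in cKO. Dusp1, a phosphatase that switches off MAP kinases, was at 746 against 229 CPM and 638 against 218 CPM. Zfp36, whose product degrades cytokine mRNAs, was at 1203 against 570.4 CPM and 1157 against 451 CPM. Fos, Ier5, Cebpb and Gadd45b were the other 4. Immediate early genes also respond to tissue handling, and the part of handling was not tested. The heat shock and handling list had no gene past 2-fold of 7 compared, with medians of -0.33 and 0.50, and without the deep barcodes none of 6, with medians of 0.36 and 0.56.

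In the IL-1 and inflammasome list, 4 of 11 genes were higher in both libraries (Nlrp3, Aim2, Txnip and Il1rap) and none lower, with medians of 0.46 and 0.38, and 2 were higher and 1 lower with median-of-ratios scaling and 4 higher and 1 lower without the deep barcodes. Nlrp3, the sensor of an inflammasome, was at 164 against 54.6 CPM in Ctrl and 82.0 against 35.6 CPM in cKO. Txnip, which can bind NLRP3, was at 1089 against 413 CPM and 1157 against 404 CPM. Members of this pathway were not all higher. Casp1, the protease that cleaves the IL-1 beta precursor, had 6 and 21 UMIs in the members (23.4 and 37.4 CPM, against 26.0 and 36.2 CPM). Il1rn, the receptor antagonist, was at 164 and 118 CPM against 157 and 96.7 CPM. Il1a and Il1r1 had no UMI in the members.

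Of 7 cytokine and chemokine genes compared, 4 were higher in both libraries (Csf1, Cxcl2, Ccl6 and Tnfsf14), with medians of 1.33 and 1.10, and 2 with median-of-ratios scaling. Csf1, the growth factor of macrophages, rests on 12 UMIs in Ctrl and 14 in cKO members, at 46.9 against 2.08 CPM and 24.96 against 2.86 CPM. Cxcl2, which draws neutrophils, was at 74.2 against 21.3 CPM and 207 against 48.7 CPM. Tnf had 0 UMIs in Ctrl members and 3 UMIs in cKO members, and Il6, Cxcl1 and Il10 had none. From the NF-kB list 2 of 19 genes were higher in both (Myd88 and Tnfaip2), none lower and none past 2-fold with median-of-ratios scaling, with medians of 0.63 and 0.58. The feedback inhibitor Nfkbia was at 207 against 96.0 CPM in Ctrl and 184 against 93.5 CPM in cKO.

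Of 35 interferon-stimulated genes, 7 were higher in both libraries (Oasl2, Trim30a, Isg15, Gbp2, Oasl1, Slfn5 and Ifit3) and none lower, with medians of 0.55 and 0.64, and 3 with median-of-ratios scaling. Of the 7, Slfn5 turned to -0.24 in cKO without barcodes with UMIs of another cell type. Oasl2 was at 336 against 110.3 CPM in Ctrl and 362 against 126 CPM in cKO, and Isg15, a ubiquitin-like modifier, at 156 against 71.3 CPM and 96.3 against 43.4 CPM. Of the 4 Ifitm genes compared, 1 was higher (Ifitm1) and 1 lower (Ifitm6).

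The secondary granule list lay on the other side, with 7 of 14 genes lower in both libraries, none higher and medians of -1.14 and -0.99. The rule had capped 3 genes of that granule. The 7 were Lcn2, Cd177, Ifitm6, Abca13, Olfm4, Itgb2l and Anxa1. The list thus also holds genes for products other than granule proteins, such as the integrin chain Itgb2l. Lcn2, which binds bacterial siderophores, was at 1644 against 5275 CPM in Ctrl and 3339 against 8547 CPM in cKO. With median-of-ratios scaling 9 were lower. From the gelatinase and late granule list 3 of 11 were lower (Cd177, Mmp25 and Cybb) and none higher, with medians of -0.46 and -0.55. Cd177 is in both of these lists. The primary granule list had none of 9 past 2-fold in both, with medians of -0.99 in Ctrl and 0.87 in cKO, where the deep member gave 73.9% of its UMIs. Without the deep barcodes these medians were 0.36 and 0.11. Of 7 oxidase genes Cybb was the 1 past 2-fold in both libraries. With median-of-ratios scaling 4 gelatinase and late granule genes, 1 primary granule gene and 2 oxidase genes were lower in both.

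The mature neutrophil list had 2 of 17 higher (Cd101 and Csf3r) and 2 lower (Ly6g and Mmp25), and the retention and egress receptors had 2 of 15 higher (Itga4 and Csf3r) and none lower. Cxcr4, which holds cells in the marrow, was at 148 against 227 CPM in Ctrl and 89.1 against 145 CPM in cKO. From the list of neutrophil transcription factors, 3 of 12 genes were higher (Cebpb, Zfp36 and Junb) and 1 lower (Klf5). The list includes Zfp36, although its product acts on mRNA. These 3 higher genes were also counted among the 7 AP-1 and immediate early genes above. Single genes were higher in the lists of BCL2 family and caspase genes (1 of 14, the cell death gene Bcl2l11, on 9 and 25 UMIs), pattern recognition receptors (1 of 14, Tlr6), glycolysis and HIF genes (1 of 19, Slc2a1) and lipid mediators (1 of 5). The last was Pla2g7, which breaks down platelet-activating factor, at 925 against 181 CPM in Ctrl and 875 against 326 CPM in cKO. Single genes were lower among 8 stefin genes (Stfa3), 9 S100 and calcium-binding genes (Anxa1) and 12 cell-cycle genes (Top2a, with no gene lower of 7 compared without the deep barcodes), and of 5 protease inhibitors 1 was higher (Wfdc17) and 1 lower (Serpinb1a). With median-of-ratios scaling the mature neutrophil list had 1 higher and 4 lower, the retention and egress receptors 2 and 1, the transcription factors 1 and 2, the pattern recognition receptors 1 and 1, glycolysis and HIF genes 0 and 1, S100 and calcium-binding genes 0 and 2, and protease inhibitors 1 and 2.

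Levels by Il1b count are given for the S100-high, granule-low barcodes with at least 2000 UMIs, 1234 of 1990 in Ctrl and 1371 of 1842 in cKO. Each was thinned to 2000 UMIs and placed in a bin by its Il1b UMIs, with no use of Mmp8. The pool includes the barcodes of neither class, with their primary granule and cell-cycle RNA, and their part in the bins was not tested. The rule used Il1b, and the bins are a description only. The bins of 0, 1, 2, 3 to 5 and 6 or more UMIs held 1059, 86, 37, 38 and 14 barcodes in Ctrl and 961, 168, 88, 103 and 51 in cKO. In cKO, Csf3r was at 909, 2018, 2472, 3131 and 3343 CPM over these bins and Socs3 at 34.3, 92.3, 131, 233 and 412 CPM, both highest in the last bin. Cybb was at 558, 193, 193, 146 and 88.2 CPM, the reverse order. In Ctrl, Csf3r was at 1065 CPM in the first bin, 2488 in the second, 4270.3 in the third and 3868 in the fourth, and the last bin has under 20 barcodes. Map4k4 was at 133 CPM in the first and 39.5 CPM in the fourth bin of Ctrl, and at 123 and 63.1 CPM in the same bins of cKO. Wfdc17 (1875 CPM in the first and 9902 CPM in the last bin of cKO), Junb (278 and 1186 CPM), Marcks (124 and 657 CPM) and Fgl2 (52.0 and 294 CPM) were also higher in each bin of cKO than in the one before, and Ifitm6 (3496 and 716 CPM) was lower in each. Over the first 4 bins of Ctrl, Junb, Fgl2 and Cybb kept the order seen in cKO, while Socs3 (17.9, 75.6, 67.6 and 171 CPM), Wfdc17 (215, 849, 1824 and 1408 CPM), Marcks (162, 477, 729.7 and 711 CPM) and Ifitm6 (1439, 837, 378 and 408 CPM) did not. Stfa2l1 and Ly6g did not follow the order of the bins. Stfa2l1 in cKO was at 907 CPM in the first bin and at 1821, 1585, 1835 and 1814 CPM in the rest, and Ly6g in cKO at 825, 884 and 869 CPM in the first 3 bins, 587 CPM in the fourth and 265 CPM in the last.

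**Figure D3:**
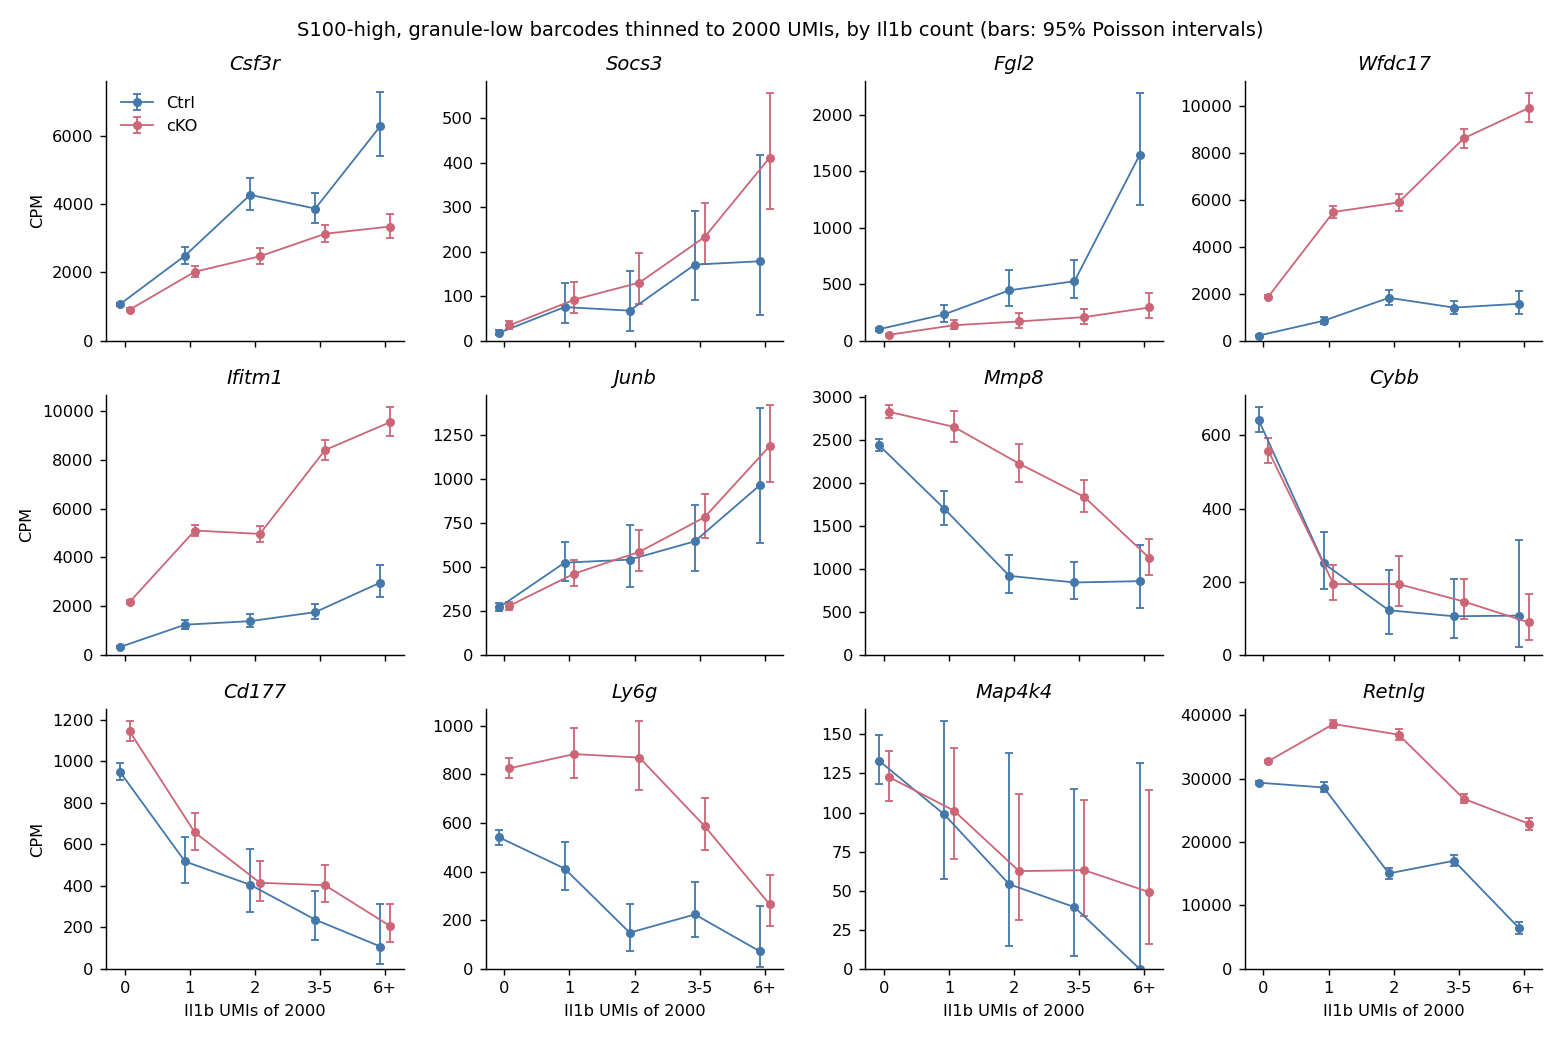
CPM of 12 genes in S100-high, granule-low barcodes with at least 2000 UMIs, thinned to that depth, by their Il1b count, with 1 line per library and bars for 95% Poisson intervals. In cKO Csf3r is at 909 CPM in the first and 3343 CPM in the last bin and Cybb at 558 and 88.2 CPM, and the last Ctrl bin holds 14 barcodes.

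Between the libraries, the Il1b-rich cells of cKO had more RNA of Wfdc17, Ifitm1 and some stefin genes and less of immunoglobulin and haemoglobin genes. Of 4924 genes compared, 194 (3.94%) were higher by at least 2-fold in cKO and 823 (16.7%) lower, with a median log2 ratio of -0.32. Median-of-ratios scaling adds 0.33 to every ratio and gave 395 higher and 446 lower. In Mmp8-rich cells 0.932% of genes were higher and 9.77% lower, with a median of -0.38, and in all other kept barcodes 0.916% and 7.9%. Genotype and library cannot be told apart here. Among the 57 Ctrl and 110 cKO members with at least 2000 UMIs, thinned to that depth, Wfdc17 was at 1825 and 9468 CPM. Ifitm1 was at 2026 and 9723 CPM in the same cells. The part of depth in the differences between the libraries was not tested.

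Ifitm1 was at 1796 CPM in Ctrl and 9291 CPM in cKO members, a log2 ratio of 2.37 (2.23 to 2.51), and Wfdc17 at 1913 and 9261 CPM, a log2 ratio of 2.27 (2.14 to 2.41). Both were also higher in the Mmp8-rich cells of cKO, by 3.16 and 3.76 on the log2 scale. In those cells Ifitm1 was at 2900 CPM and Wfdc17 at 2695 CPM, above the Il1b-rich cells of Ctrl. Their levels thus set the classes apart within a library but not across the libraries. In the stefin cluster, Stfa2 had 2 UMIs in Ctrl members and 283 UMIs in cKO members (6.01, 4.15 to 9.07, with 2.09 in Mmp8-rich cells) and Cstdc5 had 7 and 376 (4.62, 3.56 to 5.94, with 1.77). Of 9 genes compared in that cluster 4 were higher and none lower, with a median of 0.999. Stefin genes are close copies, so the split of reads between them is uncertain. Stfa2l1 had a log2 ratio of 0.60 and Ccl6 one of -0.27, which turned to 0.06 with median-of-ratios scaling.

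Cxcl2 was at 74.2 CPM in Ctrl and 207 CPM in cKO members, a log2 ratio of 1.48, with 1.19 in Mmp8-rich cells. The aspartic protease gene Asprv1 (1.81), the growth factor binding protein gene Igfbp6 (1.72), the flippase gene Atp11a (1.63), Atxn10 (1.51), the lectin-like receptor gene Klra17 (1.45), the translocator protein gene Tspo (1.45) and Prtn3 (1.48) completed the 12 highest. Prtn3, proteinase 3 of the primary granules, had 76 and 464 UMIs, and without the deep members its log2 ratio was -0.70. Of 9 primary granule genes 5 were higher and none lower with the deep members (median 1.01), and 1 was higher and 4 lower without them (median -0.99). Socs3 had a log2 ratio of 0.68 (0.23 to 1.15), with 1.31 in Mmp8-rich cells, and Steap4 one of 1.32, with 4.01.

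Lowest in cKO were Igha (207 UMIs in Ctrl and 9 in cKO, -5.65), Jchain (-4.45), Hba-a2 (-4.02), Cd74 (-3.83), Hbb-bs (-3.45), Hba-a1 (-3.01), Igkc (-2.89) and Ighm (-2.48), genes of plasma cells, red cells and antigen-presenting cells. Without the deep members the ratio of Cd74 was -2.55, on 11 UMIs in Ctrl and 4 in cKO. The same genes were lower in the Mmp8-rich cells of cKO, by log2 ratios from -5.55 for Igha to -1.39 for Ighm. How much of this RNA was free in the droplets was not tested. Gm8797 (-2.78), the ganglioside synthase gene St3gal5 (-2.22), Dennd4a (-2.19) and Sh3bp1 (-2.19) were the other 4 of the 12. Fgl2 was at 836 CPM in Ctrl and 316 CPM in cKO members (-1.40, -1.70 to -1.11), with -0.49 in Mmp8-rich cells. Csf3r, at 4967 and 3388 CPM, had a log2 ratio of -0.55, and in Mmp8-rich cells 0.04.

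Of 39 interferon-stimulated genes compared, 1 was higher in cKO (Stat2) and 5 lower, with a median of -0.34, close to the -0.32 of all genes. Of 20 AP-1 and immediate early genes 3 were lower and none higher, with a median of -0.19. Of all genes 3.94% were higher and 16.7% lower. With median-of-ratios scaling 1 AP-1 and immediate early gene was lower and 1 higher, and 3 interferon-stimulated genes were lower and 1 higher. Of 16 cell-cycle genes 10 were lower and none higher, with a median of -1.26 and of -1.37 in Mmp8-rich cells, and 8 were lower and 1 higher with median-of-ratios scaling. Without the deep barcodes 9 of 12 were lower. The RNA quality list of 7 transcripts, led by the ribosomal RNA-linked Gm42418 at 39462 CPM in Ctrl and 16266 CPM in cKO, took 52129 CPM of the Ctrl and 25972 CPM of the cKO members. Its part in the other ratios was not tested.

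**Figure D4:**
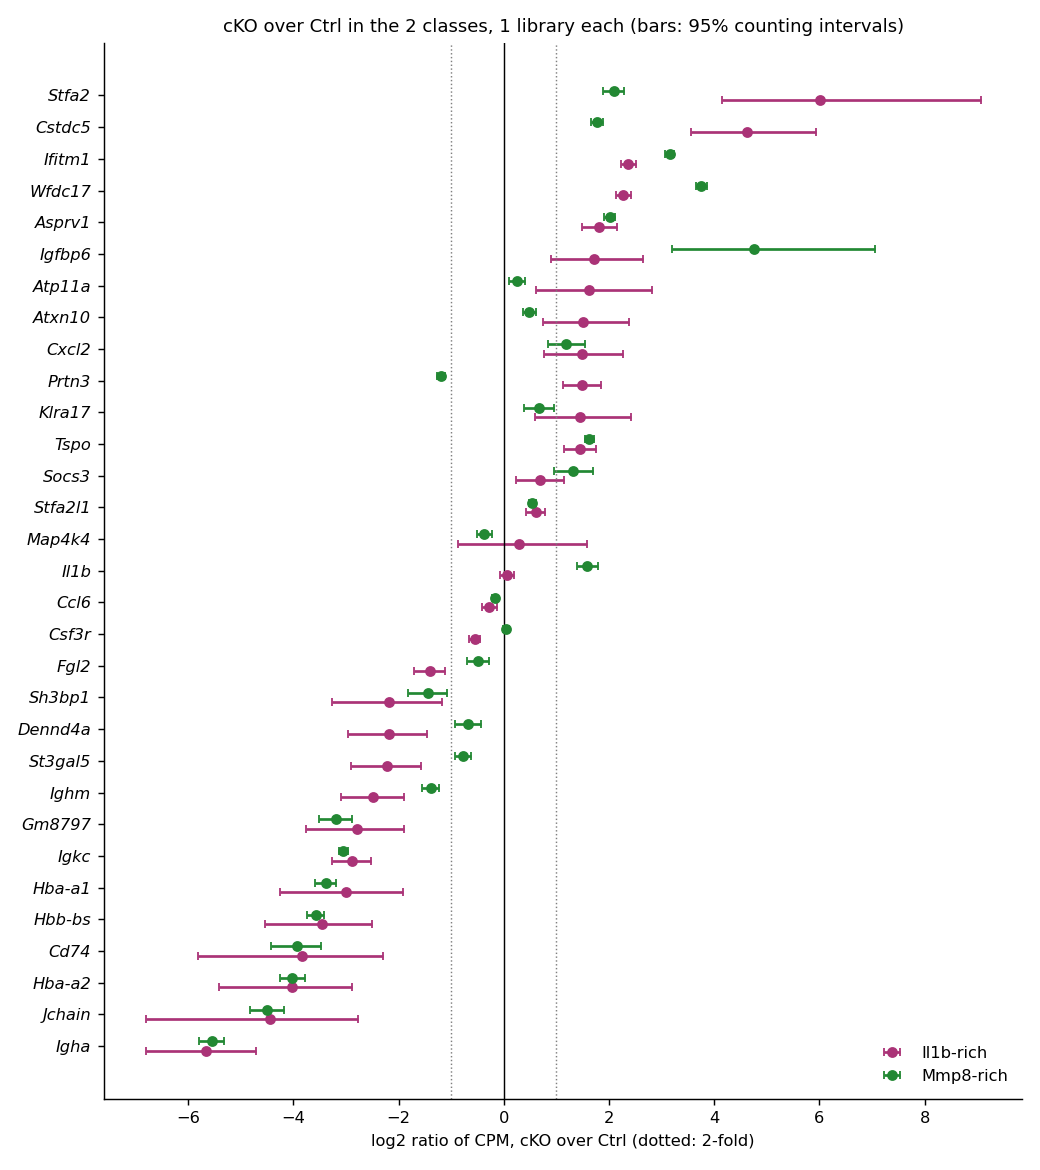
Log2 ratio of CPM, cKO over Ctrl, for the named genes in Il1b-rich and Mmp8-rich cells, with bars for 95% counting intervals. Ifitm1 (2.37 and 3.16) and Igha (-5.65 and -5.55) lie on the same side in both classes, and Prtn3 (1.48 and -1.20) does not.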

How the data were processed

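The authors deposited UMI counts per gene and barcode for each library, which the labels describe as raw, made with Cell Ranger 5.0.0 on mm10 (GRCm38) from a BMKMANU DG1000 3′ kit. The study removed doublets in its own analysis. No doublet caller was run here, and values without barcodes above 3 times the median UMIs of their class and library are given instead. The members, the 38 gene lists and the comparisons were chosen with earlier results of these data known.

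Counts were summed per library and class and scaled to CPM, and log2 ratios carry 95% intervals from the exact binomial interval of both sums. With 1 library per genotype no count model could be fitted, and cells were not taken as replicates. Genes needed 20 CPM in 1 group and 10 UMIs in sum, and for a bound 0 UMIs were set to 3. Genes named were those of the rule and lists, Map4k4, and the 12 highest and 12 lowest by log2 ratio with at least 100 CPM, for Il1b-rich over Mmp8-rich cells by the smaller ratio of both libraries. Stefin genes under 5 older symbols were matched by identifier, and 3 listed symbols were not analysed here. Promoters are the 250 bases before RefSeq starts on GRCm38.p6. Python 3.11.15, numpy 2.4.6, scipy 1.17.1, pandas 2.3.3 and matplotlib 3.10.9 were used. The log2 ratio and its interval were tested on simulated sums without variation between cells, and thinning on made-up counts. The other steps were not tested in this way. Alternatives covered the limits on depth, mitochondrial, S100, granule and Il1b UMIs, thinning, scaling, the floor on CPM, and leaving out barcodes with 3 or more UMIs of another cell type's markers.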

Additional observations from a re-analysis of the deposited data

Results flagged for a closer look

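Some ratios had opposite signs in the groups compared, with both counting intervals clear of 0, and none of these differences was tested, since each group is 1 library. For cKO over Ctrl, Capg had a log2 ratio of -1.24 in Il1b-rich cells (14 UMIs in Ctrl, 13 in cKO) and 0.14 in Mmp8-rich cells. Ngp, which the rule used, had -0.70 and 0.07. Prtn3 had 1.48 and -1.20, and its Il1b-rich value was -0.70 without the deep members.

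For Il1b-rich over Mmp8-rich cells, Stfa2 had a log2 ratio of 0.99 in cKO and -2.94 in Ctrl, where the members held 2 UMIs. Cstdc5 had 0.16 in cKO and -2.68 in Ctrl, where the members held 7 UMIs. Prtn3 had 1.31 in cKO, a value that includes the deep member, and -1.37 in Ctrl. St3gal5 had -0.98 in cKO and 0.47 in Ctrl.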

How the results depend on the processing

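With 1 library per genotype leaving out a library was not possible, and intervals hold no variation between animals. No paired analysis was possible because the groups share fewer than 2 replicate numbers. The depth of the members limits genes near 20 CPM to a handful of UMIs. Leaving out very deep barcodes was chosen after seeing the data.

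With at least 2000 UMIs per barcode the share of Il1b-rich cells was 0.786% of kept and 4.62% of S100-high, granule-low barcodes in Ctrl and 8.02% of the latter in cKO, a difference of 3.40 points. With at least 5 Il1b UMIs the Ctrl shares were 0.659% and 2.91% (difference 3.00 points), and thinned to 2000 UMIs 0.634% and 3.72% (3.26 points). With a floor of 0.1% of UMIs they were 1.72% and 7.59%, with a difference of -1.67 points, the opposite sign. An S100 floor of 10% gave 1.06% of kept barcodes in Ctrl, and a granule limit of 2% gave 8.01% and 9.01% of S100-high, granule-low barcodes in Ctrl and cKO. Leaving out barcodes with UMIs of another cell type keeps 77 of 124 Ctrl and 27 of 115 cKO members, so values in this setting rest on few cKO cells. The Ctrl shares were then 5.15% and 9.45%, the cKO share of kept barcodes 4.10% and the difference -2.36 points (-5.60 to 1.25). Kept barcodes fell from 8795 to 1495 in Ctrl and from 5347 to 658 in cKO. Shares of kept barcodes in this setting are thus not comparable with those of the main setting.

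Counts of genes past 2-fold in Il1b-rich over Mmp8-rich cells (Ctrl 738 higher and 372 lower, cKO 490 and 171) became 373 and 636 in Ctrl and 187 and 318 in cKO with median-of-ratios scaling. A floor of 50 CPM gave 398 and 160 in Ctrl and 201 and 83 in cKO, and no floor beyond 10 UMIs gave 2004 and 729 in Ctrl and 1822 and 543 in cKO. Thinning to 2000 UMIs gave 745 higher in cKO, and leaving out barcodes with UMIs of another cell type 500 lower in cKO. Over all other kept barcodes, 1327 genes higher in Ctrl became 880 with median-of-ratios scaling. For cKO over Ctrl (194 higher, 823 lower), median-of-ratios scaling gave 395 and 446, a floor of 50 CPM 69 and 365, 5 Il1b UMIs 361 higher, leaving out barcodes with UMIs of another cell type 546 lower, and the rule on thinned counts 458 lower.

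Of 772 values of named genes under the alternatives, 603 stayed inside the counting interval of the value reported. In all 11 changed sign, 6 of them from a ratio past 2-fold. Slfn5 in cKO turned to -0.24 without barcodes with UMIs of another cell type. Prtn3 for cKO over Ctrl turned to -0.58 in that setting, to -0.70 without very deep barcodes, to -0.57 with the rule on thinned counts and to -0.74 with the floor of 0.1%. Cd74 turned to 0.42 without barcodes with UMIs of another cell type, where 3 UMIs in Ctrl and 0 in cKO give no direction. The 5 from smaller ratios, all for cKO over Ctrl, were Ccl6 (0.06 with median-of-ratios scaling), Il1b (-0.31 with 5 Il1b UMIs) and Map4k4 (-1.91 without barcodes with UMIs of another cell type, on 5 and 1 UMIs, -0.48 with the rule on thinned counts and -0.01 with the floor of 0.1%). Beyond the construction of each setting the cause was not tested.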

Other observations

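For cKO over Ctrl in the Il1b-rich cells, 19 genes were compared from the glycolysis and HIF list. Of these, 3 were higher by at least 2-fold (Slc2a1, Gapdh and Ldha) and none lower, where 3.94% of all genes were higher and 16.7% lower. The list median was 0.61 against -0.32 for all genes. With median-of-ratios scaling 8 were higher and none lower, to be read against the counts over all genes in that scaling given above. Without the deep members 3 were higher and 1 lower, with a median of 0.57. Gapdh was at 984 CPM in Ctrl and 2152 CPM in cKO members (log2 ratio 1.13), Ldha at 184 and 440.4 CPM (1.26) and the glucose transporter gene Slc2a1 at 39.0 and 87.4 CPM (1.16). In Mmp8-rich cells these ratios were 1.02, 0.87 and 1.31, with a list median of 0.33. The summed level of the list was higher in every class of cKO, with 5111 against 7609.6 CPM in the members and 4210.4 against 6186 CPM in all other kept barcodes.

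The barcodes that met the Il1b, Mmp8 and granule limits with under 5% of S100 UMIs differed between the libraries in Csf3r, Cxcr2, Ccr2 and Lyz2. The 36 in Ctrl had Csf3r at 2405 CPM, Cxcr2 at 687 CPM, Ccr2 at 159.8 CPM and Lyz2 at 1278 CPM. The 6 in cKO had Csf3r at 375 CPM, Cxcr2 at 120 CPM, Ccr2 at 1365 CPM and Lyz2 at 10784 CPM. Cd74 was high in both sets, at 1981 CPM in Ctrl and 2703 CPM in cKO. Ccr2 in the members was at 7.81 CPM in Ctrl and 3.57 CPM in cKO.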
